A study of Mus musculus with 4 samples.

Results

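The IgLON genes are Lsamp, Negr1, Opcml, Ntm and Iglon5. They were found by symbol in the deposited count matrices, in which these 5 were 5 of the 32285 genes listed. Each symbol occurred once. Lsamp and Negr1 were chosen by their measured levels, which were high in mesoderm populations of these same cells, and the other members for belonging to the same family. Levels across cell types are therefore given as a description, without a test. The rule did not use the comparison of genotypes, which was tested.

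IgLON proteins are small cell adhesion molecules with immunoglobulin domains, held on the outer face of the membrane by a GPI anchor. They bind each other, alike or in mixed pairs, on the same cell or between neighbours, and ADAM metalloproteinases can shed them from the surface. They are best known in the nervous system, where limbic system-associated membrane protein (Lsamp), neuronal growth regulator (Negr1), opioid-binding cell adhesion molecule (Opcml) and neurotrimin (Ntm) influence neurite outgrowth and synapse formation. Iglon5 is the fifth member and is known as the target of autoantibodies in a neurological disease. KMT2D, the enzyme removed in this study, is a histone methyltransferase that marks enhancers with H3K4 methylation.

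Single GFP+ cells were sorted from the pharyngeal region and heart of E9.5 mouse embryos, whose strain the labels give as outbred SwissWebster and the study's methods as a mixed background of Swiss Webster and C57BL/6. Controls were cHet (Tbx1Cre/+; Kmt2d F/+; GFP F/+) and mutants were cKO (Tbx1Cre/+; Kmt2d F/F; GFP F/+). All embryos therefore carried the Tbx1Cre allele, which disrupts 1 copy of Tbx1, and the GFP reporter, and the controls lacked 1 copy of Kmt2d in the same cells. Cre acts in cells of the Tbx1 lineage, and the sort for GFP was made to keep those cells. There were 4 libraries, 1 for each genotype in each of 2 replicates. Each Rep1 library held 4 pooled embryos and was made with Next GEM chemistry, and each Rep2 library held 3 and was made with GEM-X chemistry. Embryos of a pool cannot be separated, which leaves n = 2 libraries per genotype. The study's supplement lists somite ranges that start lower in cHet than in cKO in both replicates. In Rep2 the cHet range also ends lower. Stage within E9.5 was not part of the fits, and its part in the genotype differences was not tested. Where 4 values follow each other, Rep1 comes before Rep2 and, within each, cHet before cKO.

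After filtering, 33448 cells remained, between 5869 and 11938 per library, with median depths of 17240 to 22972 UMIs per cell. They formed 23 clusters, and a cluster was given a name only from its marker genes, so that each name stands for cells like that type. The cHet Rep1 library stood apart: it listed 37093 barcodes, and 60.0% of its UMIs lay in kept cells, against 86.1% to 91.6% in the other libraries. Genotype partners of the same replicate shared 87 (Rep1) and 71 (Rep2) cell barcodes, and libraries of different replicates shared 0. The kits of the replicates use different barcode lists, so the 0 tells nothing about the samples. The number of shared barcodes expected within a replicate was not computed. Levels are given in CPM, the number of UMIs of a gene per 1000000 UMIs summed over the cells of a group in 1 library. Kmt2d itself was at 16.1 and 14.6 CPM in cHet and cKO of Rep1 and 24.3 and 20.6 CPM in Rep2 in the mesenchyme (log2 fold change -0.18, SE 0.061, adjusted p = 0.220, edgeR). It was lower in cKO in both replicates in 5 of the 9 cell groups. The position of the deleted exons relative to these 3′ reads is not given in the sources used here, and these values are therefore no check of the labels.

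Lsamp spans 2197 kb of chromosome 16 (chr16:39984361-42181679, plus strand), Negr1 755 kb of chromosome 3 (chr3:156561794-157316445, plus strand), Opcml 1135 kb of chromosome 9 (chr9:27790775-28925410, plus strand) and Ntm 968 kb of chromosome 9 (chr9:28994750-29963141, minus strand). Iglon5, on the minus strand of chromosome 7 (chr7:43472904-43490075), covers 17.2 kb. Positions are those of GENCODE M21 on GRCm38, the assembly also called mm10. Annotated exons fill between 0.783% and 1.39% of the span of the 4 long genes and 15.3% of Iglon5. Whether reads in introns were counted is not stated, and such reads could add more to the 4 long genes than to Iglon5. For this reason levels are compared between cell groups for each gene and not between genes. Opcml and Ntm lie next to each other on chromosome 9.

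The 250 bases before a RefSeq transcription start (GRCm38.p6) are shown for the genes that differed between genotypes, Negr1 and Ntm, and for Lsamp, which did not in the mesenchyme. They read 5′ to 3′ on the strand of the gene. Capitals mark CG dinucleotides, the sites of DNA methylation, whose density separates the main classes of promoter.
Negr1, chr3:156561544-156561793, plus strand: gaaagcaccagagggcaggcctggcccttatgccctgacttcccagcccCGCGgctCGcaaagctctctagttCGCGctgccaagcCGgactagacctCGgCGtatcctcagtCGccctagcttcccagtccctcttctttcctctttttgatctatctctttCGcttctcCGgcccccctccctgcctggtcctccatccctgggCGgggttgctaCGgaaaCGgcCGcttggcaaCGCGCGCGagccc
Ntm, chr9:29412686-29412935, minus strand: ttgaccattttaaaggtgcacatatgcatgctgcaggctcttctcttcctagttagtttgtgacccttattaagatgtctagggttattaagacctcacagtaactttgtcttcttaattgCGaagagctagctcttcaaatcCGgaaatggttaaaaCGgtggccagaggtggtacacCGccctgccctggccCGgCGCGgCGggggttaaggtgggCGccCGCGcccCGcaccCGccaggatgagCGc
Lsamp, chr16:39984114-39984363, plus strand: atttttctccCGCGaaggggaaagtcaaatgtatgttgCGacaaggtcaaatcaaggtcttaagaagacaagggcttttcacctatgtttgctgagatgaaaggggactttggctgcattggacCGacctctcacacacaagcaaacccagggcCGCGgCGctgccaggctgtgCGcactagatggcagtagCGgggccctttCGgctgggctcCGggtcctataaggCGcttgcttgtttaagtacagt
The Negr1 window held 19 CG dinucleotides, and 19.7% of the 32851 promoters of this length held as many or more, against a median of 6. The Ntm window held 14 (29.4% of promoters held as many) and the Lsamp window 12 (33.5%). RefSeq gives Lsamp and Ntm a further start each, with 3 and 2 CG dinucleotides in the 250 bases before it. For both genes the window shown is the one with more CG dinucleotides, and the Ntm window lies inside the span given above. Which start these cells use was not examined. Opcml had 8 and Iglon5 13. The letters CG were the only motif searched, and the counts are a description of these windows only.

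Lsamp was highest in the mesenchyme. Its level there was 223 and 219 CPM in cHet and cKO of Rep1 and 276 and 279 CPM in Rep2, with a mean of 249 ± 32.6 (SD, n = 4 libraries, both genotypes). The multilineage primed progenitors (MLPs) followed at 163 ± 34.6 CPM, the anterior second heart field (aSHF) at 123 ± 17.5 and the branchiomeric muscle progenitors (BrM) at 106 ± 10.5. The lowest mesenchyme library lay above the highest MLP library, whereas the ranges of MLPs, aSHF and BrM overlapped with those of their neighbours in this order. Below them came the posterior second heart field (pSHF, 54.0 ± 10.1 CPM), neuronal cells (50.4 ± 22.5), epithelium (41.3 ± 3.79), cardiac muscle (30.5 ± 6.26) and endothelium (15.0 ± 7.02), with overlapping ranges from each to the next.

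Negr1 followed another order. It stood at 148 ± 38.0 CPM in BrM and 140 ± 27.8 in the mesenchyme, which overlapped, then at 88.3 ± 25.7 in neuronal cells and 73.7 ± 12.6 in the epithelium. The MLPs were clearly apart at 35.8 ± 2.56 CPM, below every epithelial library, and aSHF (23.1 ± 2.56), pSHF (18.9 ± 8.85) and cardiac muscle (10.0 ± 4.37) were lower still. In the endothelium 75, 4, 22 and 7 Negr1 UMIs were counted in the 4 libraries, most of them in cHet Rep1.

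Opcml was highest in MLPs, at a mean of 89.1 ± 25.8 CPM, followed by aSHF at 44.6 ± 3.69 and pSHF at 41.3 ± 8.95. The mesenchyme, at 15.0 ± 5.26 CPM, was below all pSHF libraries, and the other groups were between 3.06 and 10.1 CPM. Ntm was found mostly in the mesenchyme (50.2 ± 13.9 CPM), cardiac muscle (46.9 ± 11.3) and BrM (33.1 ± 5.73), whose ranges overlapped, and the other groups were between 2.72 and 23.5 CPM. Iglon5 was low throughout, from 0.200 CPM in the endothelium to 2.49 in pSHF, and at most 6.52% of the cells of any group and library among the 9 held a UMI of it.

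**Figure D1:**
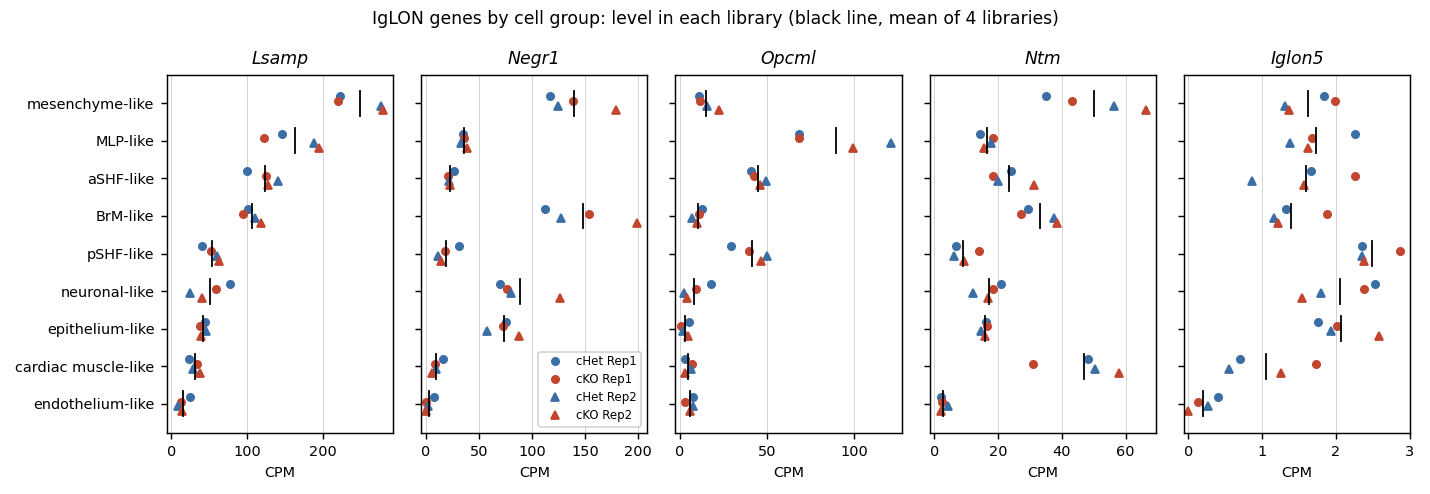
Level of each IgLON gene in CPM (horizontal axis, linear, its own scale per gene) in 9 cell groups, with 1 point per library (blue cHet, red cKO; circles Rep1, triangles Rep2) and a black line at the mean of 4 libraries. Lsamp peaked in the mesenchyme at 249 CPM, Negr1 in BrM and mesenchyme at 148 and 140, and Opcml in MLPs at 89.1.

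None of the 5 genes had its highest mean in the neuronal cells, although the neuronal range of Negr1 overlapped that of the mesenchyme. The neuronal cells here (694 cells) expressed Elavl3, Tubb3 and other neuronal markers, with a summed level of 2278 to 6694 CPM over 8 markers, against 18.4 to 26.3 CPM in the mesenchyme. They came from different clusters in the replicates: 277 of the 278 cells of the Neurod1/Sct cluster were from Rep1, and 366 of the 416 cells of the Thsd7b/Tubb3 cluster were from Rep2. Neuronal Lsamp was 77.4 and 58.1 CPM in cHet and cKO of Rep1 and 25.1 and 40.8 CPM in Rep2, so that Rep1 was above Rep2. In these cells the mesenchyme markers (533, 361, 212 and 178 CPM summed) and BrM markers (58.1, 61.4, 4.87 and 16.7 CPM) were also higher in Rep1. The summed MLP and aSHF markers were higher in Rep2. Their part in the Lsamp level was not tested. Neuronal Negr1 was 69.9 and 76.9 CPM in Rep1 and 80.2 and 126 CPM in Rep2.

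Within the mesenchyme the genes were unevenly spread over 8 clusters, which are called here by their first leading genes. Other settings divided these cells differently, as given with the genotype fits of the clusters below. Lsamp was highest in the Gabra2/Galntl6 cluster (484, 464, 626 and 661 CPM) and in the Pcdh9/Dach2 cluster (340, 409, 469 and 482 CPM). It was lowest in the Pax3/Tcf15 cluster, at 18.2 to 37.8 CPM. Pax3 and Tcf15 are genes of the somites and their derivatives. Negr1 was highest in the Pcdh9/Dach2 cluster (289, 379, 330 and 486 CPM) and in the Adamtsl1/Tagln cluster (293, 390, 281 and 441 CPM), and at 18.3 to 27.5 CPM in the Cyp26a1/Vcam1 cluster. Ntm was highest in the Pax3/Tcf15 cluster (99.1, 86.5, 130 and 138 CPM), followed by means of 82.0 CPM in Vtn/Cthrc1 and 61.7 CPM in Gabra2/Galntl6, and was at most 14.1 CPM in the Pcdh9/Dach2 cluster and 8.49 CPM in the Adamtsl1/Tagln cluster.

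These differences were also seen as shares of cells, after each cell was thinned to 5000 UMIs to remove differences in depth. An Lsamp UMI was found in 69.2% to 79.5% of thinned cells of the Gabra2/Galntl6 cluster over the 4 libraries (87.3% to 93.0% before thinning). In the mature endothelium (Emcn/Cdh5 cluster), a type not known for the gene, the thinned share was 1.63% to 4.74% (6.54% to 12.9% before thinning). Median depths per library reached 20075 UMIs per cell in the former and 27388 in the latter. Negr1 was found in 53.0% to 71.3% of thinned Pcdh9/Dach2 cells and in 0% to 0.654% of thinned mature endothelial cells. Both transcripts were found in the same cell in 69.4% to 77.8% of unthinned Pcdh9/Dach2 cells, in 15.8% to 19.0% of Cyp26a1/Vcam1 cells and in 2.52% to 6.0% of ectoderm cells. In unthinned mature endothelial cells this share was 0% to 0.980%. For Ntm the thinned share was 26.9% to 42.3% in the Pax3/Tcf15 cluster and 0% to 0.633% in the mature endothelium. For Opcml it was 19.4% to 29.0% in MLPs and 0% to 0.862% in the mature endothelium.

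**Figure D2:**
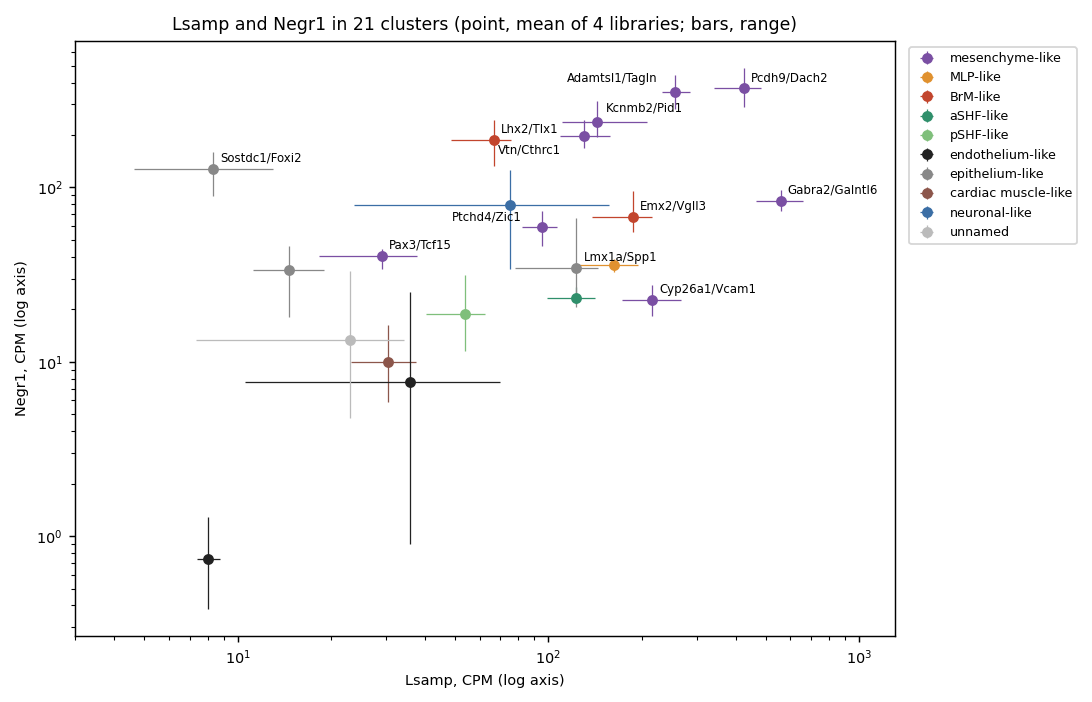
Lsamp level (horizontal) against Negr1 level (vertical), both in CPM on log axes, in the 21 clusters with at least 10 cells in every library; points are means and bars the range of the libraries. The Pcdh9/Dach2 cluster was high in both genes (means 425 and 371 CPM), the Cyp26a1/Vcam1 cluster in Lsamp with little Negr1 (215 and 22.5 CPM) and the ectoderm cluster (Sostdc1/Foxi2) in Negr1 with little Lsamp (8.32 and 128 CPM).

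Outside the mesoderm the genes split by epithelium. Lsamp was 123 ± 30.4 CPM in the otic vesicle, 14.6 ± 3.30 in the endoderm and 8.32 ± 3.68 in the ectoderm, whereas Negr1 was 128 ± 31.4 CPM in the ectoderm, 34.4 ± 21.8 in the otic vesicle and 33.5 ± 11.7 in the endoderm. The lowest otic library for Lsamp, 78.1 CPM, was above the highest endoderm library, 18.9 CPM. Thus neither gene was limited to mesoderm. Of the BrM clusters, Lhx2/Tlx1 was the higher in Negr1 (187 ± 47.2 against 67.8 ± 18.6 CPM) and Emx2/Vgll3 in Lsamp (187 ± 37.4 against 66.8 ± 12.4 CPM).

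Over the 23 clusters, the genes most like each member in level were found by Pearson correlation of the mean log2(CPM + 1), among 9975 genes with at least 20 CPM in a cluster. Clusters share libraries and depth, so these are descriptions. For Lsamp they were Pcdh9, a protocadherin (r = 0.82), Caln1, a neuronal calcium-binding protein (0.81), and B3galt1, a galactosyltransferase (0.80). Those for Negr1 were Gria3, a subunit of AMPA-type glutamate receptors (0.88), the ubiquitin ligase Nedd4 (0.87) and the neuronal catenin Ctnna2 (0.87). Opcml was nearest to Lix1, Olfml3 and Hs3st3a1, an enzyme that modifies heparan sulfate (0.70 each), and Ntm to Eepd1 (0.76), Mir100hg (0.71) and Grb10, an adaptor that restrains growth factor signalling (0.68). For Iglon5 they were Neo1 (0.90), Stxbp4 (0.88) and Adnp (0.86), on levels of a few CPM. Between members, r ranged from 0.11 (Negr1 and Opcml) to 0.70 (Negr1 and Iglon5), and for Lsamp and Negr1 it was 0.57.

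The loss of the second Kmt2d copy was then compared with its presence in 9 cell groups, to ask whether any IgLON gene differed with it. Negr1 was higher in cKO in BrM and in the mesenchyme, and Ntm was higher in the mesenchyme. Lsamp did not pass the test in any group. Of 42 tests of IgLON genes that passed the filter on low counts (Iglon5 failed it in cardiac muscle, neuronal cells and endothelium), these 3 passed an adjusted p of 0.05, all upward, in edgeR's quasi-likelihood test with Benjamini-Hochberg adjustment over all genes of a group and the replicate as a block. The shares of all genes called were 1.63% in the mesenchyme, 0.999% in BrM, 0.716% in MLPs, 0.286% in aSHF, 0.461% in pSHF, 0.0590% in cardiac muscle, 0.0245% in neuronal cells and 0% in epithelium and endothelium, where 603 and 512 genes had an unadjusted p under 0.05 and DESeq2 called 4 and 1. In mesenchyme 2 of 5 IgLON genes were called and in BrM 1 of 5. None of the 3 was called in the edgeR fit without the replicate block, where 0 genes were called in any group and 2 of the 42 IgLON tests had an unadjusted p under 0.05, nor when any 1 of the 4 libraries was left out, in fits that had no block.

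Negr1 in BrM was 112 CPM in cHet and 154 CPM in cKO of Rep1, and 127 CPM in cHet and 199 CPM in cKO of Rep2. Both cKO libraries lay above both cHet libraries. The log2 fold change was 0.59 (SE 0.074, adjusted p = 0.000688, edgeR), or 1.51-fold. In the mesenchyme Negr1 was 117 and 138 CPM in cHet and cKO of Rep1 and 124 and 179 CPM in Rep2, again with no overlap of the genotypes. Its log2 fold change was 0.39 (SE 0.062, adjusted p = 0.00449, edgeR), or 1.31-fold. DESeq2 also called both, with the block (adjusted p = 0.000372 in BrM and 0.000319 in the mesenchyme). With any 1 library left out, the log2 fold change was 0.50 to 0.66 in BrM and 0.27 to 0.51 in the mesenchyme.

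Ntm in the mesenchyme was 34.9 CPM in cHet and 43.3 CPM in cKO of Rep1, and 56.4 CPM in cHet and 66.3 CPM in cKO of Rep2. Here the replicates differed by more than the genotypes: both Rep2 libraries were above both Rep1 libraries, and cKO was above cHet within each replicate. The log2 fold change was 0.28 (SE 0.048, adjusted p = 0.00887, edgeR), or 1.21-fold, and DESeq2 did not call it (adjusted p = 0.0567). Without cHet Rep1 or cKO Rep2 it was 0.11, and without cKO Rep1 or cHet Rep2 it was 0.43 and 0.47, in fits that cannot separate the replicates.

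Lsamp in the mesenchyme was nearly the same in both genotypes of a replicate (223 and 219 CPM in Rep1, 276 and 279 CPM in Rep2), with a log2 fold change of 0.0045 (SE 0.046, adjusted p = 0.994, edgeR). It was 0.041 in BrM (SE 0.077), -0.073 in MLPs (SE 0.060), 0.079 in aSHF (SE 0.083), 0.17 in pSHF (SE 0.10) and -0.21 in epithelium (SE 0.087), none of them called. Its largest value was 0.51 in cardiac muscle (SE 0.18, adjusted p = 0.964, edgeR), at 23.2 and 33.7 CPM in Rep1 and 27.9 and 37.4 CPM in Rep2. This value was unstable: with cells of at least 1000 genes it was -1.03 and with doublets kept 0.74, both past the threshold (adjusted p = 0.0277 and 0.0133, edgeR). In neuronal cells Lsamp was 0.053 (SE 0.22), lower in cKO in Rep1 and higher in Rep2.

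Opcml in the mesenchyme had a log2 fold change of 0.33 (SE 0.091, adjusted p = 0.117, edgeR), from 10.8 and 11.4 CPM in cHet and cKO of Rep1 and 15.6 and 22.2 CPM in Rep2. It was called without the filter on low counts (adjusted p = 0.00733) and with cells of at least 1000 genes (0.0445), and without cKO Rep2 it was -0.038. In MLPs, where it was highest, Opcml was 68.1 and 68.2 CPM in Rep1 and 121 and 99.2 CPM in Rep2 (log2 fold change -0.14, SE 0.066, adjusted p = 0.701, edgeR), and in aSHF its log2 fold change was -0.031 (SE 0.10). Negr1 in MLPs had a log2 fold change of 0.18 (SE 0.085, adjusted p = 0.717, edgeR). Neuronal Negr1 had a log2 fold change of 0.42 (SE 0.13, adjusted p = 0.674, edgeR) and was called only with doublets kept (0.55, adjusted p = 0.0147). Ntm in pSHF was 6.89 and 14.1 CPM in Rep1 and 6.34 and 9.45 CPM in Rep2, higher in cKO in both (log2 fold change 0.75, SE 0.22, adjusted p = 0.289, edgeR). The lowest value was -2.76 for endothelial Negr1 (SE 0.53, adjusted p = 0.760, edgeR). Of its UMIs, 75 were in cHet Rep1, 69 of these in the Etv2/Tal1 cluster, and with doublets kept it was 0.098. The remaining tests lay between these extremes. At an unadjusted p under 0.05, 13 of the 42 tests would have passed. Of all genes, 1905 of 17889 did so in the mesenchyme, the group with the highest share. In the endothelium, with the lowest share, it was 512 of 13078.

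**Figure D3:**
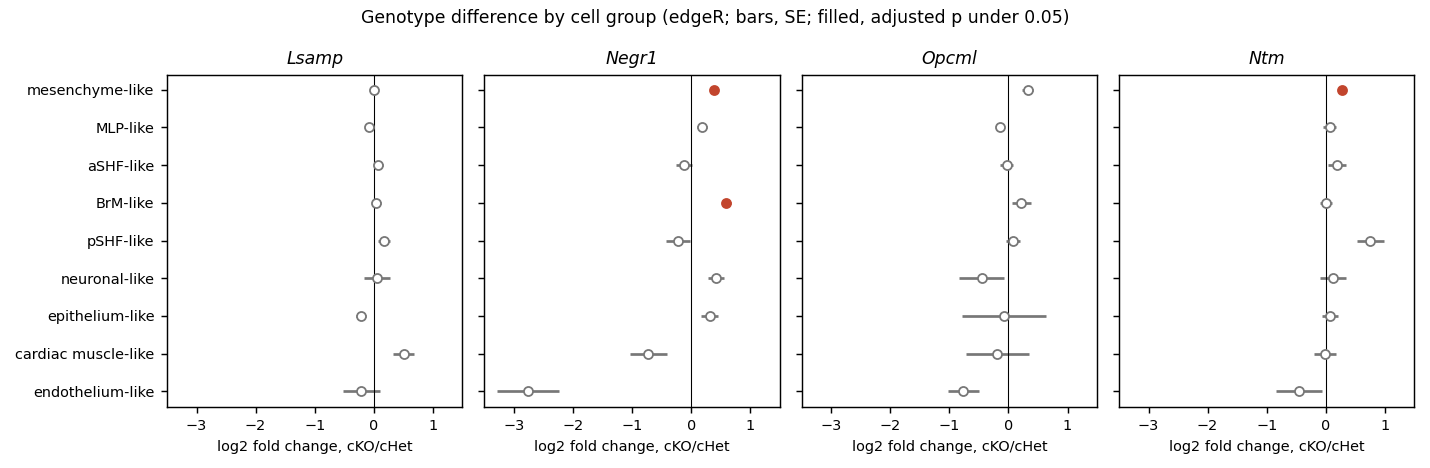
Log2 fold change of cKO over cHet (horizontal axis) for the 4 better expressed IgLON genes in 9 cell groups, from edgeR with the replicate as a block; bars are 1 SE and filled points had an adjusted p under 0.05. The SE is taken from the edgeR test and is not the spread between replicates. Filled points are Negr1 in BrM (0.59) and mesenchyme (0.39) and Ntm in mesenchyme (0.28).

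Whether Negr1 responded differently between cell groups was tested with a term for cell group by genotype, first for each gene in each group where it was called, against each other group. Of 23 such tests, 8 passed, and these were for Negr1, against 0.700% of all genes tested in these 15 pairs of groups. The 23 tests were picked for a genotype call in the same libraries and the other genes were not. These shares are therefore not a like comparison. Its log2 fold change in BrM was larger than in MLPs (difference -0.40, MLPs minus BrM, adjusted p = 0.0209), aSHF (-0.69, adjusted p = 9.73e-07), pSHF (-0.80, adjusted p = 0.000199) and endothelium (-3.39, adjusted p = 0.0106), in edgeR. The mesenchymal change was larger than those in MLPs (-0.23, adjusted p = 0.0411), aSHF (-0.51, adjusted p = 0.0102), cardiac muscle (-1.18, adjusted p = 0.00325) and endothelium (-3.19, adjusted p = 0.000710). Negr1 was highest in cHet Rep1 in aSHF (26.8, 21.4, 21.5 and 22.7 CPM) and cardiac muscle (16.2, 8.64, 9.49 and 5.84 CPM). This also held in pSHF and endothelium, but not in MLPs (34.9, 36.3, 32.9 and 39.0 CPM). The part of that library in these differences was not tested. Both endothelial differences rest on 75, 4, 22 and 7 UMIs and were -0.50 and -0.26 with doublets kept, where neither passed (adjusted p = 0.182 and 0.901, edgeR). It was not shown to differ between BrM and mesenchyme (0.18, SE 0.069, adjusted p = 0.292, edgeR), nor between either of them and neuronal cells or epithelium. The differences of pSHF from the mesenchyme (-0.62, adjusted p = 0.182) and of cardiac muscle from BrM (-1.33, adjusted p = 0.0861) also did not pass. For Ntm in the mesenchyme no difference from another group passed, including BrM (-0.26, SE 0.086, adjusted p = 0.133, edgeR), where its own log2 fold change was 0.0092.

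The same term was also fitted for every pair of the 9 groups, a choice made after seeing the data, and 13 of 178 tests passed, 11 for Negr1 and 2 for Opcml, against 0.461% of all genes over the 36 pairs. The lowest adjusted p belonged to Opcml, a gene called in neither group on its own: its log2 fold change was lower in MLPs than in the mesenchyme (difference -0.53, SE 0.070, adjusted p = 3.68e-11, edgeR), at 0.33 in the mesenchyme and -0.14 in MLPs, a pair in which 1.38% of all genes passed. It lay mostly in Rep2: the difference of the log2 ratios of CPM was -0.071 in Rep1 and -0.79 in Rep2. The SE of 0.070, taken from the edgeR test, does not measure this gap between replicates. Opcml also differed between mesenchyme and endothelium (-1.08, SE 0.20, adjusted p = 0.0450, edgeR), and Negr1 between endothelium and MLPs, neuronal cells and epithelium (-2.96, -3.15 and -3.02). These values are endothelium minus the other group. Only the Opcml difference between mesenchyme and MLPs passed in all 5 alternatives that kept the replicate term (-0.58 to -0.52). None of the 13 passed without that term. With doublets kept, 0 of the 6 differences that involve the endothelium passed, and the mesenchymal Negr1 differences from aSHF (-0.24, adjusted p = 0.395, edgeR) and MLPs (-0.17, adjusted p = 0.216, edgeR) were also lost. Of the 23 first tests, 1 passed without cHet Rep1, 3 without cKO Rep1, 6 without cHet Rep2 and 0 without cKO Rep2, in fits without the replicate term. In these fits every Negr1 difference that did not involve the endothelium was smaller without cHet Rep1 or cKO Rep2 and larger without cKO Rep1 or cHet Rep2. Between BrM and pSHF it ranged from -0.11 (without cHet Rep1) to -1.75 (without cHet Rep2), and Negr1 in pSHF went from 31.4 to 18.4 CPM in Rep1 but from 11.5 to 14.1 CPM in Rep2. Against the mesenchyme the range was -0.35 to -0.062 for MLPs, -0.77 to -0.34 for aSHF and -1.69 to -0.73 for cardiac muscle, and between MLPs and BrM it was 0.25 to 0.58 and between BrM and aSHF -0.99 to -0.49. The Opcml difference was -0.61 without cHet Rep1 (adjusted p = 4.46e-05, edgeR), -0.66 without cKO Rep1, -0.32 without cHet Rep2 and -0.22 without cKO Rep2, of which only the first passed.

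A group is a mixture of clusters, so the comparison was repeated in each mesenchyme and BrM cluster, a choice made after seeing the data. Clusters of a group share libraries and are not independent tests. These fits were made for the main clustering only, and the alternative settings were not run for them. With a minimum of 1000 genes, doublets kept or IgLON genes among the variable genes, the cells were divided differently. There Galntl6 and Pcdh9 were leading genes of the same cluster, and no cluster was led by Kcnmb2 and Pid1. The share of mesenchyme cells in the Pcdh9/Dach2 cluster, rich in Negr1, was 11.1% and 12.7% in cHet and cKO of Rep1 and 9.75% and 11.4% in Rep2. With the 8 clusters weighted equally, Negr1 was 145 and 169 CPM in Rep1 and 152 and 215 CPM in Rep2 (mean log2 ratio 0.35), higher in cKO in both replicates. Equal weights fix only the shares of the clusters and not the cells within a cluster. The part of the cell mixture in the difference was not tested. In BrM, the Negr1-rich Lhx2/Tlx1 cluster held 74.1% and 67.3% of the cells in Rep1 and 63.5% and 71.3% in Rep2. With both BrM clusters weighted equally, Negr1 was 94.3 and 134 CPM in Rep1 and 112 and 169 CPM in Rep2 (mean log2 ratio 0.55). In the mesenchyme, for Ntm the equally weighted mean log2 ratio was 0.19 and for Lsamp 0.083.

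The shares of all genes called in these fits were 1.00% (Cyp26a1/Vcam1), 1.20% (Ptchd4/Zic1), 1.03% (Gabra2/Galntl6), 0.224% (Vtn/Cthrc1), 1.52% (Pcdh9/Dach2), 1.47% (Adamtsl1/Tagln), 0.386% (Kcnmb2/Pid1), 0.0272% (Pax3/Tcf15), 0.0438% (Lhx2/Tlx1, BrM) and 0.722% (Emx2/Vgll3, BrM). Against these, 8 of 48 IgLON tests were called. Negr1 was called in the Adamtsl1/Tagln cluster (log2 fold change 0.54, SE 0.073, adjusted p = 2.24e-10, edgeR), the Pcdh9/Dach2 cluster (0.49, SE 0.073, adjusted p = 9.05e-05, edgeR) and the Ptchd4/Zic1 cluster (0.32, SE 0.068, adjusted p = 0.00728, edgeR) of the mesenchyme. Of the BrM clusters it was called in Lhx2/Tlx1 (0.60, SE 0.069, adjusted p = 0.0453, edgeR), with 133 and 203 CPM in cHet and cKO of Rep1 and 169 and 243 CPM in Rep2. The Emx2/Vgll3 value was similar but not called (0.57, SE 0.13, adjusted p = 0.0823, edgeR). Negr1 was not called in 5 mesenchyme clusters. Of these, Kcnmb2/Pid1 was rich in Negr1 and split by replicate (220 and 194 CPM in Rep1, 222 and 312 CPM in Rep2, log2 fold change 0.18, SE 0.11, adjusted p = 0.916, edgeR). Vtn/Cthrc1, with a mean of 198 CPM, had a log2 fold change of 0.28 (SE 0.062, adjusted p = 0.118, edgeR) and Gabra2/Galntl6 of 0.22 (SE 0.082, adjusted p = 0.341, edgeR). In the Cyp26a1/Vcam1 and Pax3/Tcf15 clusters, both lower in Negr1, the values were 0.066 (SE 0.10) and -0.12 (SE 0.16).

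Ntm was called in a single cluster, Gabra2/Galntl6 (log2 fold change 0.65, SE 0.069, adjusted p = 9.51e-05, edgeR). It rose there from 36.4 to 59.0 CPM in Rep1 and from 60.2 to 91.1 CPM in Rep2. In the Pax3/Tcf15 cluster, where Ntm was highest, the value was -0.017 (SE 0.11). Lsamp was called in opposite directions in 2 clusters. It was lower in cKO in Cyp26a1/Vcam1 (199 and 172 CPM in Rep1, 266 and 223 CPM in Rep2, log2 fold change -0.23, SE 0.052, adjusted p = 0.0276, edgeR). It was higher in Kcnmb2/Pid1 (log2 fold change 0.41, SE 0.11, adjusted p = 0.0369, edgeR), where the replicates were unlike: 110 and 207 CPM in Rep1 but 125 and 132 CPM in Rep2. Opcml was called in Ptchd4/Zic1 (0.44, SE 0.099, adjusted p = 0.0128, edgeR), from 16.5 to 19.1 CPM in Rep1 and from 19.9 to 29.5 CPM in Rep2.

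**Figure D4:**
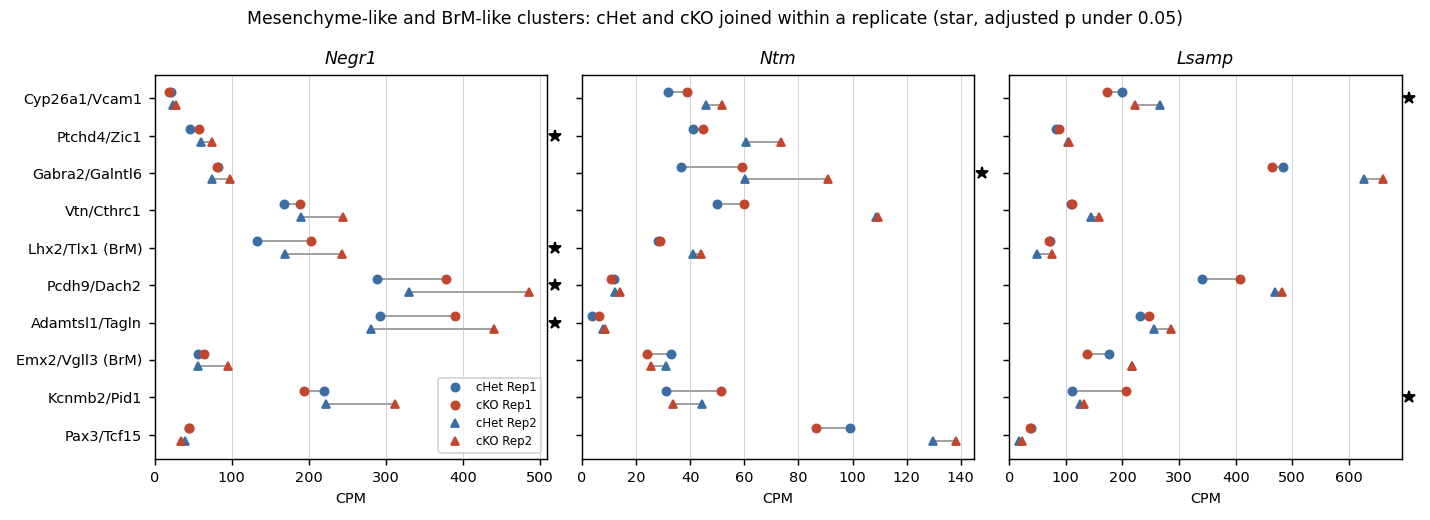
Levels in CPM (horizontal axis) of Negr1, Ntm and Lsamp in 8 mesenchyme clusters and 2 BrM clusters; lines join cHet (blue) and cKO (red) of a replicate (circles Rep1, triangles Rep2) and stars mark an adjusted p under 0.05 in edgeR. For Negr1 the red points were to the right in both replicates in all 4 starred clusters, and for Lsamp they were to the left in Cyp26a1/Vcam1 and to the right in Kcnmb2/Pid1.

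Epithelial Negr1 was 76.0 and 73.2 CPM in cHet and cKO of Rep1 and 57.5 and 88.1 CPM in Rep2 (log2 fold change 0.31, SE 0.15, adjusted p = 1.00, edgeR). In the ectoderm alone, where Negr1 was highest among the epithelia, it was 89.8 and 146 CPM in Rep1 and 116 and 160 CPM in Rep2, higher in cKO in both replicates (0.58, SE 0.091, adjusted p = 0.313, edgeR). The other epithelia split by replicate: the otic vesicle was at 66.9 and 22.7 CPM in Rep1 and 20.7 and 27.3 CPM in Rep2 (-0.57, SE 0.31, adjusted p = 0.948, edgeR), and the endoderm at 46.3 and 35.3 CPM in Rep1 and 18.0 and 34.6 CPM in Rep2 (0.36, SE 0.25, adjusted p = 1.00, edgeR).

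Other genes of the same pathway were read from lists chosen with earlier results of these data known. Of 17 GPI-anchored or immunoglobulin adhesion molecules of neurons, 15 were tested in the mesenchyme, with 1 called higher and 1 lower, and 14 in BrM, with 2 called higher, where 1.63% and 0.999% of all genes were called. The median log2 fold change of the list was 0.0026 in the mesenchyme and 0.030 in BrM, against 1.7e-05 and 0.014 over all genes tested. Cadm2, a synaptic cell adhesion molecule, was higher in cKO in both groups: in the mesenchyme it was 43.9 and 57.5 CPM in Rep1 and 39.9 and 63.5 CPM in Rep2 (log2 fold change 0.54, SE 0.064, adjusted p = 0.000554, edgeR). In BrM its log2 fold change was 0.48 (SE 0.11, adjusted p = 0.0363, edgeR). Cntn6, a GPI-anchored contactin, was higher in BrM (0.74, SE 0.17, adjusted p = 0.0352, edgeR), at 5.48 to 9.74 CPM. Nectin2, an adhesion molecule of cell junctions, was lower in the mesenchyme (-0.22, SE 0.048, adjusted p = 0.0340, edgeR). With DESeq2 only Cadm2 in the mesenchyme was called (adjusted p = 2.53e-06), and none of the 4 was called without the block or with any 1 library left out. The mesenchymal value of Cadm2 was 0.77 without cHet Rep1 and 0.31 without cHet Rep2. Its BrM value was 0.16 without cHet Rep1, -0.16 without cKO Rep2 and 0.92 without cKO Rep1 or cHet Rep2. None of these 17 genes was called in the other 7 groups, where 0% to 0.716% of all genes were called. The sheddases Adam10 and Adam17, 7 genes of GPI anchor synthesis and attachment and the FGF receptors Fgfr1, Fgfr3 and Fgfr2, the last of which NEGR1 is known to bind, gave 0 calls with edgeR in 18, 63 and 24 tests, with 0, 2 and 3 at an unadjusted p under 0.05, and 0 calls with DESeq2. Of all genes, 0% to 1.63% were called in a group with edgeR. With so few tests, 0 calls do not show that these genes were unchanged.

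Markers of other cell types were read beside these results. The 8 neuronal markers summed to 18.4 and 19.1 CPM in cHet and cKO of Rep1 and 23.4 and 26.3 CPM in Rep2 in the mesenchyme, and to 31.0 and 34.7 CPM and 32.6 and 32.2 CPM in BrM, a small part of the neuronal level. The 6 ectoderm markers, from the other cells rich in Negr1, summed to at most 3.68 CPM in either group. The 9 mesenchyme markers summed to 394 and 269 CPM in Rep1 and 323 and 276 CPM in Rep2 in BrM, lower in cKO where Negr1 was higher, and the 6 BrM markers to 402 and 483 CPM in Rep1 and 632 and 803 CPM in Rep2, higher in cKO like Negr1. The part of these markers in the Negr1 result was not tested. In the endothelium the BrM markers summed to 20.4, 5.06, 8.20 and 7.30 CPM and the mesenchyme markers to 168, 108, 137 and 137 CPM. The epithelium markers summed to 15.4, 5.06, 6.40 and 6.76 CPM. These sums were highest in cHet Rep1, like endothelial Negr1, but the neuronal sum was not (26.9, 16.5, 34.3 and 70.2 CPM). Their part in the endothelial Negr1 values was not tested either. Antisense genes overlap Negr1, Lsamp, Opcml and Ntm. In the mesenchyme the gene opposite Negr1 had 11 to 54 UMIs per library, against 6552 to 18922 for Negr1.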

How the data were processed

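The deposited values are unscaled UMI counts, made by the authors with Cell Ranger against mm10. Its version is 7.0.1 in the headers of the Rep1 matrices, and 8.0.1 in those of Rep2 and in the submitters' processing notes. The SoupX correction described for the study is not in the deposited counts, so UMIs of free RNA are included. Whether introns were counted is not given in the sources used here. Library totals were 179454146 to 234726019 UMIs.

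Barcodes with at least 3000 genes, at most 10% mitochondrial and at most 5% hemoglobin UMIs were kept. The automatic threshold of Scrublet marked 0.0801% and 0.105% of the Rep1 barcodes, so doublets were removed by score at a cut set from the rate expected for the kit (3.90% to 5.33%). This removed 361, 358, 391 and 637 barcodes from the libraries of Rep1 and then Rep2, cHet first, or 4.03% to 5.78%, the most in cHet Rep1, where 4.99% was expected. Counts were scaled to 10000 per cell, and 2000 variable genes without the IgLON genes, 30 principal components, an alignment of the replicates and 20 neighbours gave the Leiden clusters (resolution 0.8, leidenalg 0.10.2, scanpy 1.11.5). A cluster was named where at least 3 markers of a type were in 10% of its cells and at least 2-fold above all other cells. The mesenchyme name was given last, to clusters still without a name. For it the same cuts were used, but against the cells of already named clusters only. Markers, members and gene lists were chosen with earlier results of these data known.

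Counts were summed per library and cell group and compared with edgeR 4.0.16 (TMM, filterByExpr, quasi-likelihood, replicate as block; R 4.3.3), called at an adjusted p under 0.05. Replicate numbers mark a shared kit, with a pool of embryos for each library: same-numbered libraries deviated together, with correlations of 0.658 to 0.848 over the groups. With the block, the p-values rest on the variation left after genotype and replicate are fitted, with dispersion shared over genes. Differences between replicates that both genotypes share are removed from it. Each SE given with an edgeR log2 fold change is its absolute value divided by the square root of the F statistic. It therefore rests on the same variation and dispersion, and does not measure the spread between the replicates. The scripts recovered known changes in counts simulated for mesenchyme and neuronal cells, and these changes were larger than the IgLON changes called here. Recovery of changes as small as those was not simulated. Genes named are the 5 members in every group, for each member the 3 genes closest in level over clusters, and called genes of the pathway lists. Fold changes are given for the 16 tests with at least 200 UMIs in every library and for 4 picked after their values were seen: Lsamp in neuronal cells and cardiac muscle, Negr1 in endothelium, and Ntm in pSHF, with the per-cluster fits also chosen then. Alternatives were DESeq2 1.42.0, edgeR with RLE factors, no filter on low counts, no block, each library left out, a minimum of 1000 genes, doublets kept, IgLON genes among the variable genes and thinning to 5000 UMIs. Intervals were not drawn for counts; the 4 libraries limit the precision.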

Additional observations from a re-analysis of the deposited data

Results flagged for a closer look

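The genotype difference was itself different between cell groups in 13 tests of the cell group by genotype term (edgeR, log2 scale), 11 for Negr1 and 2 for Opcml, of 178 made (0.461% of all genes passed over the same pairs). Of these 13, 1 passed in every alternative that kept the replicate term, and 0 passed without that term. With doublets kept, 0 of those that involve the endothelium passed. For Negr1, values are the other group minus the one named first. Against the mesenchyme the difference was -0.23 in MLPs, -0.51 in aSHF, -1.18 in cardiac muscle and -3.19 in endothelium. Against BrM it was -0.40 in MLPs, -0.69 in aSHF, -0.80 in pSHF and -3.39 in endothelium. The endothelial values rest on 75, 4, 22 and 7 UMIs (cHet and cKO of Rep1, then of Rep2), and those of cardiac muscle on a group with 43 cells in cKO Rep1. In aSHF, pSHF, cardiac muscle and endothelium, the Negr1 level was highest in cHet Rep1. Against MLPs, neuronal cells and epithelium, the Negr1 difference in the endothelium was -2.96, -3.15 and -3.02. For Opcml the difference from the mesenchyme was -0.53 in MLPs and -1.08 in endothelium.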

How the results depend on the processing

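The 3 IgLON calls became 5 without the filter on low counts, 5 with doublets kept, 6 with a minimum of 1000 genes and 0 without the replicate block. All-gene counts with doublets kept and with a minimum of 1000 genes are not given here, so those IgLON counts have no background beside them. With each library left out, in fits without a block, the count was 0 to 0. The 649 calls over all genes and groups became 141 with DESeq2, 1693 without the filter, 310 after thinning and 0 without the block, and 0 to 2 with a library left out. The 8 of 23 differences between groups became 2 after thinning, 5 with a minimum of 1000 genes and 0 without the replicate block, and were 0 to 6 with a library left out, in fits chosen after seeing the data. Of the 7 alternatives that kept the block, all 7 called Negr1 in mesenchyme (adjusted p 1.91e-08 to 0.0283) and in BrM (4.89e-18 to 0.00215) and 6 called Ntm in mesenchyme (0.000396 to 0.0567). Among uncalled values the sign turned as follows; the cause was not tested. With a minimum of 1000 genes, Lsamp was -0.0038 in mesenchyme, -0.012 in BrM and -1.03 in cardiac muscle, and Opcml was 0.086 in aSHF. With doublets kept, Opcml in aSHF was 0.034 and Negr1 in endothelium 0.098. After thinning, Ntm in BrM was -0.036 and Lsamp in neuronal cells -0.29; without the block the latter was -0.086. With 1 library left out, Lsamp ranged from -0.020 to 0.033 in mesenchyme, -0.073 to 0.13 in BrM, -0.24 to 0.075 in MLPs, -0.054 to 0.23 in aSHF and -0.75 to 1.17 in neuronal cells, Opcml from -0.038 to 0.63 in mesenchyme, -0.35 to 0.10 in MLPs and -0.13 to 0.078 in aSHF, Negr1 from -0.059 to 0.40 in MLPs and -0.084 to 0.66 in epithelium, and Ntm from -0.10 to 0.082 in BrM. The levels given for Lsamp, Negr1, Opcml and Ntm in mesenchyme, BrM, MLPs and neuronal cells moved by less than 1 SD in 146 recomputations and by more in 6. These were Lsamp in BrM (120 CPM) and Opcml in BrM (13.0 CPM) with doublets kept, Negr1 in MLPs with doublets kept (39.3 CPM) or thinning (38.5 CPM), and, with equally weighted clusters, Negr1 in mesenchyme (170 CPM) and Lsamp in BrM (127 CPM). Iglon5 had at most 187 UMIs in a group and library, and counts this low limit what its tests can show.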

Other observations

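The neural tube-like cluster (Hes5/Rfx4, 238 cells) entered no comparison, since 224 of its cells were from Rep1. Lsamp was 185 CPM in its cHet Rep1 cells and 174 CPM in its cKO Rep1 cells, Negr1 88.2 and 100 CPM, Opcml 33.6 and 50.9 CPM and Ntm 56.7 and 32.3 CPM. In Rep1 all 4 genes were above the neuronal cells of the same library (77.4 and 58.1 CPM for Lsamp, 69.9 and 76.9 CPM for Negr1, 17.9 and 9.29 CPM for Opcml, 21.0 and 18.6 CPM for Ntm).

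A cluster without a name (Barx1/Dlx2, 301 cells) held 80 Opcml UMIs in cKO Rep2, 50 of them in 1 cell, against 26 and 21 in cHet and cKO of Rep1 and 1 in cHet of Rep2.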
